A study of Mus musculus with 6 samples.

Results

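The 32 genes described here encode the enzymes of mitochondrial fatty acid oxidation and of the citrate cycle, with the pyruvate dehydrogenase complex that joins sugar breakdown to the cycle. They were chosen by symbol, not by level, from the RPKM table, which holds 21671 genes. Earlier results of these data were known when they were chosen. RPKM scales the reads of a gene by its transcript length and by the mapped reads of the library, so levels can be set side by side between genes. The deposited values had also been brought to nearly 1 distribution in every library, with sorted values at most 0.0192 RPKM apart, so that levels and sums are relative to that distribution. All 32 were in the table and passed the filter on low values (a maximum above 0.25 RPKM over the libraries), as did 13934 genes in all. By role, 19 members belong to beta-oxidation, 4 to the pyruvate dehydrogenase complex, 1 is a kinase of that complex and 8 belong to the citrate cycle.

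RNA was sequenced from cells sorted by flow cytometry from the hind-limb gastrocnemius muscle of mdxITGAM-DTR mice of both sexes, 10 to 12 weeks old. These mice lack dystrophin (mdx) and carry a transgene in which the ITGAM promoter, active in myeloid cells, drives the diphtheria toxin receptor, so that diphtheria toxin (DT) depletes macrophages (MΦs). Every group carried both alleles, and the muscles were injected every 4 days with PBS (CTRL) or DT and collected 15 days after the first injection. The 3 groups were satellite cells (SCs) of PBS-injected mice (SCs CTRL), SCs of DT-injected mice (SCs DT) and α7Sca1 cells of DT-injected mice, with 2 libraries each and 2 mice pooled per library. SCs, the stem cells of muscle, were sorted as α7 integrin positive and Sca1 negative cells without CD31, CD45 and Ter119, and α7Sca1 cells as those positive for both α7 integrin and Sca1. No α7Sca1 library from PBS-injected mice was analysed here, so the effect of DT on α7Sca1 cells could not be measured.

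Long-chain fatty acids enter the mitochondrion as acylcarnitines through the carnitine shuttle and are then shortened in repeated rounds of dehydrogenation, hydration, a second dehydrogenation and thiolysis. Each round yields acetyl-CoA, which the citrate cycle burns, and electrons, part of which reach the respiratory chain through the electron transfer flavoprotein. Pyruvate enters the same cycle through the pyruvate dehydrogenase complex, which its kinases switch off. In muscle this route is known above all from contracting fibers, and in SCs fatty acid oxidation has been associated with quiescence. Adipocytes make and store fat, and they also express this machinery.

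The gates matched the sorting genes, but the marker lists set the populations far apart. Ly6a, which encodes Sca1, was at 344 and 248 RPKM in α7Sca1 cells, at 51.8 and 55.2 in SCs DT and at 31.0 and 21.6 in SCs CTRL. Itga7, which encodes the α7 integrin, was at 41.8 and 48.5 RPKM in α7Sca1 cells and between 75.0 and 78.3 in the SC libraries. Satellite cell markers, 10 in all, summed to 850 to 1006 RPKM in SCs CTRL, 875 to 965 in SCs DT and 339 to 437 in α7Sca1 cells. Most of the α7Sca1 sums came from Sdc4, at 215 and 344 RPKM, whose levels overlapped those of both SC groups. Each of the other markers on this list was lower in α7Sca1 cells than in every SC library. Among these, Pax7 was at 0.380 and 0.319 RPKM in α7Sca1 cells, at 3.45 and 2.67 in SCs DT and at 4.87 and 5.01 in SCs CTRL. The summed level of 12 adipocyte markers was 104 to 123 RPKM in SCs CTRL, 292 to 735 in SCs DT and 13122 to 13986 in α7Sca1 cells, with Lep listed at 0 in every SC library. The summed level of 12 mature muscle fiber markers was 263 to 477 RPKM in SCs CTRL, 1338 to 2027 in SCs DT and 39.4 to 49.9 in α7Sca1 cells. The 5 brown fat markers summed to between 2.76 and 4.65 RPKM in all 6 libraries, of which Dio2 made 1.60 to 2.81, while Cidea was at 0.0456 and 0.0233 RPKM in SCs CTRL, 0.320 and 0.377 in SCs DT, and 0.207 and 1.61 in α7Sca1 cells. One library, SCs CTRL 1, stood apart in the summed level of 9 fibroadipogenic progenitor markers, at 3139 RPKM beside 471 in SCs CTRL 2, and that sum was 344 to 464 in SCs DT and 871 to 1356 in α7Sca1 cells. Macrophage markers, 10 in all, summed to 475 to 914 RPKM in SCs CTRL, 181 to 326 in SCs DT and 72.6 to 98.6 in α7Sca1 cells. The 4 pericyte and smooth muscle markers summed to 583 to 646, 785 to 1105 and 67.5 to 187 RPKM in the same order. The part of these marker lists in the results on the members was not tested. In these bulk libraries, fewer cells of a type and less RNA per cell cannot be told apart.

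Peroxisome proliferator-activated receptors (PPARs) and estrogen-related receptors (ERRs) are the nuclear receptors best known for switching on this pathway, and their DNA motifs were looked for from 250 bases before to 50 bases after each gene start (RefSeq, GRCm38.p6). Windows were given for 27 of the 32 members. The motifs searched on both strands were the ERR motif TCAAGGTCA, exact, and a PPAR site of 2 direct copies of AGGTCA with 1 base between, with up to 2 mismatches. A PPAR-site match lay in the windows of 4 of the 27 members (14.8%), beside 4.40% of all 27025 genes with a window, and no member had a match with 1 mismatch, beside 0.644% of all genes. The ERR motif was found in no member window, beside 0.466% of all genes. Of the 4 members with a match, 3 rose in α7Sca1 cells against SCs DT, whereas the fourth, Sucla2, did not pass the test. Those 3 are beta-oxidation members, of which 15 of 19 rose, beside 14.6% of all genes tested. Other members that rose, among them Cpt2, Acadm, Etfb and Ehhadh, had a window without a match. A link between match and rise was not tested. The 4 stretches are printed with the match in capitals, each in the gene's own orientation.
Slc25a20 (chr9:108662134-108662162, + strand, match begins at 6): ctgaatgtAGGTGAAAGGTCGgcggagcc
Echs1 (chr7:140116472-140116524, - strand, match begins at -83): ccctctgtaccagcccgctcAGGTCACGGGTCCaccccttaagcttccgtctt
Etfa (chr9:55512288-55512340, - strand, match reads on the opposite strand and begins at -77): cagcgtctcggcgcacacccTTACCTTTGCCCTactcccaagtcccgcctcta
Sucla2 (chr14:73552607-73552659, + strand, match begins at -159): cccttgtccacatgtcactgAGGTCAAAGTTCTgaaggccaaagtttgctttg
Positions are counted from the gene start, negative before it. A match of letters does not show binding, which was not measured.

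The first comparison asked what MΦ depletion changed in SCs. No member passed the test between SCs DT and SCs CTRL, from the entry of fatty acids to the last step of the citrate cycle. In limma's test on log2(RPKM + 1), with Benjamini-Hochberg adjustment over all genes tested, 0 of 32 members passed an adjusted p of 0.05 in either direction. Of all genes tested, 0.352% rose (49) and 0.0933% fell (13). At an unadjusted p under 0.05 there was 1 member, Cpt1b, and 1449 of the 13934 genes. The member differences lay between -0.27 and 0.43 on the log2 scale with a median of -0.00, beside -0.01 over all genes. Their 95% intervals reached from -0.73 to 1.33, and changes of single genes within their own intervals remain possible.

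The 4 largest member differences in SCs were those of Cpt1b, Cpt2, Pdk4 and Acadl, and each was positive. Cpt1b differed by 0.43 (SE 0.16, limma adjusted p = 0.425), Cpt2 by 0.39 (SE 0.23, adjusted p = 0.640), Pdk4 by 0.35 (SE 0.42, adjusted p = 0.883) and Acadl by 0.31 (SE 0.29, adjusted p = 0.819). Over the members, the libraries of SCs CTRL differed from each other more than those of SCs DT. Of the 32 members 29 were higher in SCs CTRL 2 than in SCs CTRL 1, a direction that was not counted over all genes. The median difference in size was 0.239 on the log2 scale over the members, beside 0.155 over all genes. Between both SCs DT libraries it was 0.114 over the members and 0.1497 over all genes. The summed level of the 19 beta-oxidation members was 238 and 271 RPKM in SCs CTRL and 278 and 271 in SCs DT. The sums of both groups thus lay between 238 and 278 RPKM, while the summed adipocyte and muscle fiber markers were higher in both SCs DT libraries than in both SCs CTRL libraries.

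**Figure D1:**
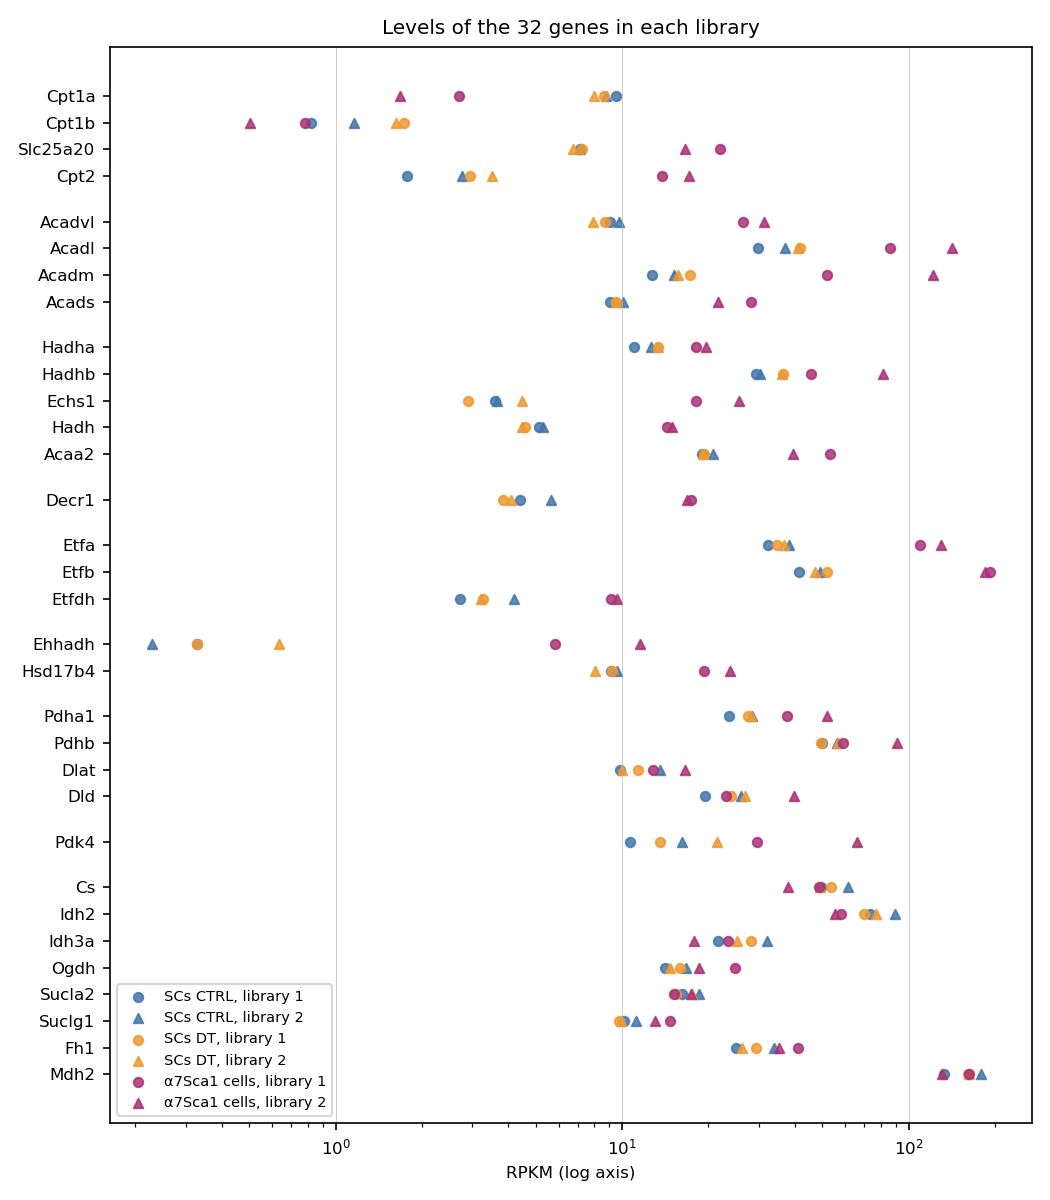
RPKM of the 32 members on a log axis, 1 row per gene in the order of the pathway, with 1 point per library (circles library 1, triangles library 2; blue SCs CTRL, orange SCs DT, purple α7Sca1 cells). The SC points of both groups lie together in nearly every row, while the purple points lie to the right for most beta-oxidation genes, to the left for Cpt1a, and close to the others on either side for the citrate cycle.

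The second comparison set α7Sca1 cells against SCs, both from DT-injected mice. The enzymes that oxidize fatty acids inside the mitochondrion were higher in α7Sca1 cells almost throughout, whereas Cpt1a and Cpt1b, whose enzymes start the route, were lower. None of the 8 citrate cycle members passed the test, while 6 of 12 other citrate cycle genes, described below, were called higher. Of the 32 members, 16 rose, 2 fell and 14 did not pass, beside 14.6% of all genes tested that rose (2041) and 15.6% that fell (2175). The members' median difference was 0.97 on the log2 scale, beside -0.04 over all genes. Among the 19 beta-oxidation members 15 rose, 2 fell and 2 did not pass, with a median of 1.40. Against SCs CTRL, 18 members rose and 1 fell, beside 15.1% and 17.3% of all genes (2102 and 2404), and the members' median was 1.06, beside -0.06 over all genes. Both comparisons use the same α7Sca1 libraries, so that they are not independent of each other. Without SCs CTRL 1, the library that stood apart, 12 members were called higher against SCs CTRL, and 1068 of all genes. Between SCs DT and SCs CTRL that fit called 0 genes of the whole table, and so says nothing about the members. The summed level of the 19 beta-oxidation members was 735 and 911 RPKM in α7Sca1 cells, above the range of 238 to 278 in the SC libraries. The adipocyte markers given above rose in the same libraries, and their part in these differences was not tested.

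**Figure D2:**
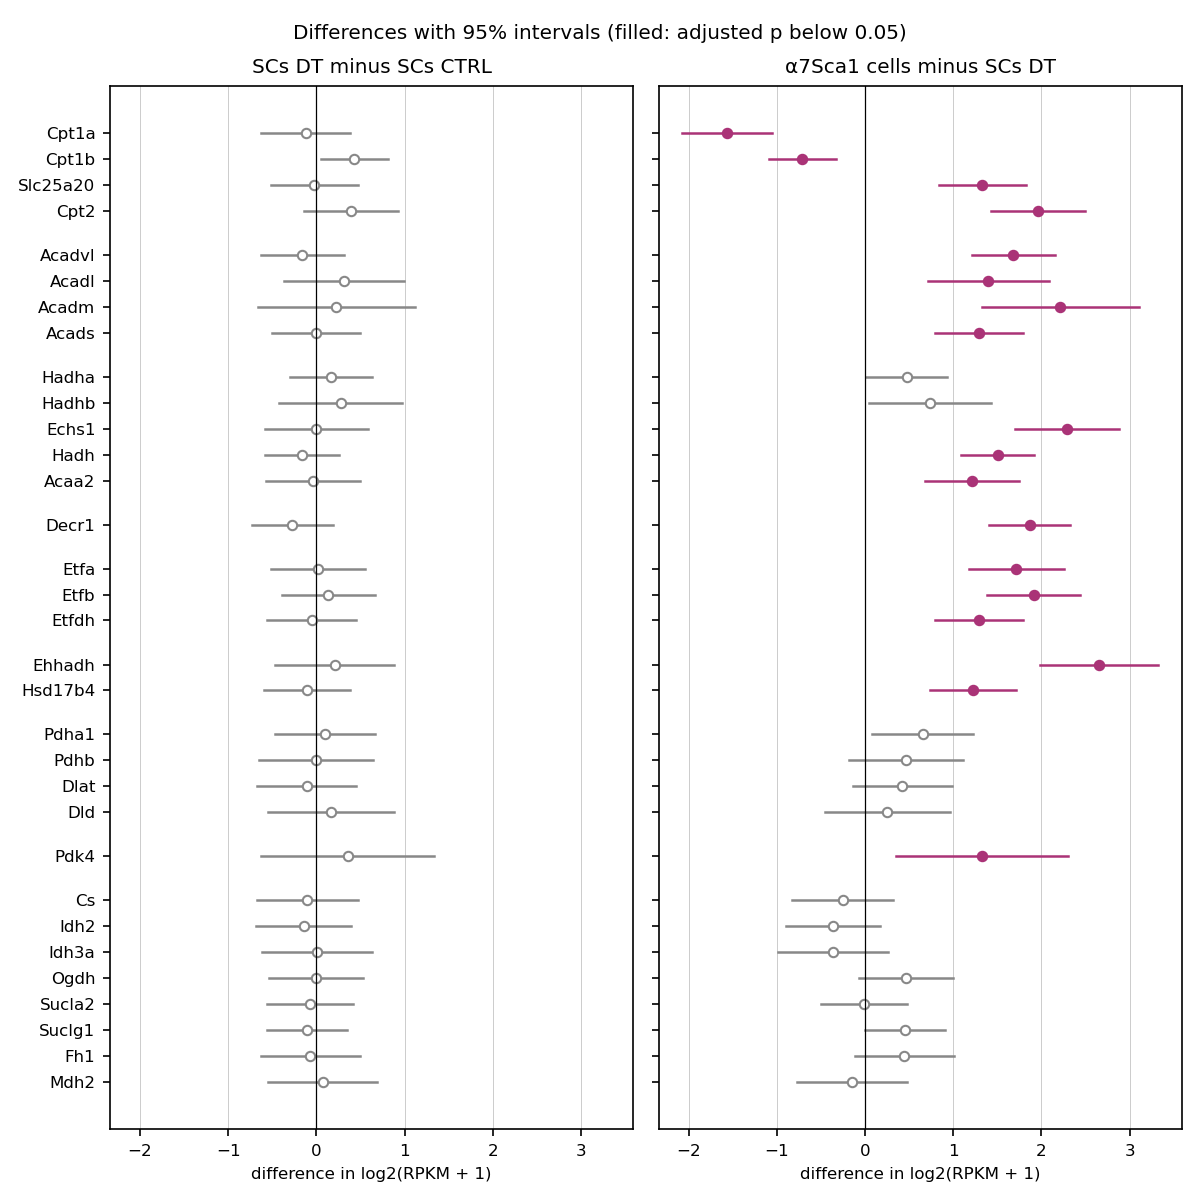
Difference in log2(RPKM + 1) of each member between SCs DT and SCs CTRL (left) and between α7Sca1 cells and SCs DT (right), with 95% intervals from limma; filled points passed an adjusted p of 0.05. No point is filled on the left, where differences lie between -0.27 and 0.43, and 18 are filled on the right, 16 above 0 and 2 below.

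The carnitine shuttle was split. Cpt1a (chromosome 19: 3323301-3385732, mm9), the carnitine palmitoyltransferase 1 of most tissues and the rate-limiting entry of long-chain fatty acids, was at 9.49 and 8.77 RPKM in SCs CTRL, 8.64 and 7.97 in SCs DT, and 2.70 and 1.68 in α7Sca1 cells. Both α7Sca1 libraries lay below every SC library. The difference from SCs DT was -1.56 (SE 0.22, limma adjusted p = 0.00218) and that from SCs CTRL was -1.69 (adjusted p = 0.00147), and the mean RPKM of SCs DT was 3.79 times that of α7Sca1 cells.

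Cpt1b (chromosome 15: 89246836-89256294), the muscle form of the same enzyme, was low throughout, at 0.821 and 1.16 RPKM in SCs CTRL, 1.73 and 1.63 in SCs DT, and 0.783 and 0.503 in α7Sca1 cells. It fell by 0.71 from SCs DT (SE 0.16, limma adjusted p = 0.0167), whereas the difference of -0.28 from SCs CTRL did not pass (adjusted p = 0.233). Without SCs DT 1, SCs DT 2 or α7Sca1 library 2 the fall no longer passed, with adjusted p of 0.0996, 0.0750 and 0.0631. In the mm9 annotation 81.4% of the exon bases of Cpt1b are shared on the same strand with Chkb, a choline kinase gene, so the reads of these genes may be split uncertainly. Chkb was at 8.32 to 13.1 RPKM over the libraries, and its groups overlapped. The highest Cpt1b levels stood in the SCs DT libraries, which also held the most muscle fiber marker RNA, and the part of those markers in the result was not tested. On the log2 scale Cpt1a exceeded Cpt1b by 2.53 and 2.18 in SCs CTRL, 1.82 and 1.77 in SCs DT, and 1.05 and 0.83 in α7Sca1 cells.

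The inner part of the shuttle moved the opposite way. Slc25a20 (chromosome 9: 108564429-108586972), the carrier that takes acylcarnitines across the inner membrane, was at 7.15 and 7.12 RPKM in SCs CTRL, 7.27 and 6.73 in SCs DT, and 22.0 and 16.6 in α7Sca1 cells. It rose by 1.33 from SCs DT (SE 0.21, limma adjusted p = 0.00377). Cpt2 (chromosome 4: 107576586-107596215), which turns acylcarnitines back into acyl-CoA inside the mitochondrion, was at 1.77 and 2.75 RPKM in SCs CTRL, 2.95 and 3.51 in SCs DT, and 13.8 and 17.2 in α7Sca1 cells. It rose by 1.96 from SCs DT (SE 0.23, adjusted p = 0.00105) and by 2.34 from SCs CTRL (adjusted p = 0.000489). In each SC library Cpt1a was the most abundant of the 4 shuttle genes per length, and in each α7Sca1 library Slc25a20 and Cpt2 were both above Cpt1a.

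**Figure D3:**
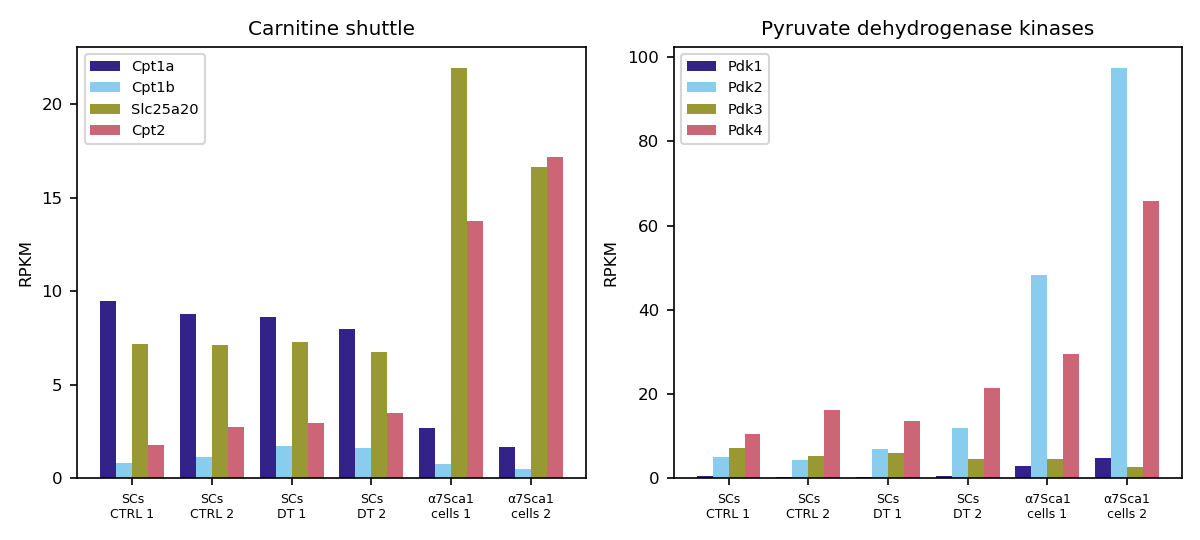
RPKM of the 4 carnitine shuttle genes (left) and of the 4 pyruvate dehydrogenase kinases (right) in each of the 6 libraries, 1 bar per gene and library. Cpt1a is the tallest shuttle bar in the SC libraries and is overtaken by Slc25a20 and Cpt2 in α7Sca1 cells, where Pdk2 reaches 48.3 and 97.6 RPKM and Pdk4 29.5 and 65.9 RPKM.

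All 4 acyl-CoA dehydrogenases, which take the first electrons from acyl-CoA of falling chain length, rose in α7Sca1 cells. Acadvl, for very long chains, was at 9.06 and 9.78 RPKM in SCs CTRL, 8.69 and 7.93 in SCs DT, and 26.5 and 31.4 in α7Sca1 cells. Its difference from SCs DT was 1.68 (SE 0.20, limma adjusted p = 0.00115). In the annotation 42.9% of its exon bases overlap Dvl2 on the opposite strand, and the library kit does not mark strand, but Dvl2 was at 0.914 to 1.95 RPKM in all libraries and its groups overlapped.

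Acadl, for long chains, was the most abundant of these dehydrogenases in every library, at 29.7 and 37.0 RPKM in SCs CTRL, 41.8 and 41.0 in SCs DT, and 86.3 and 142 in α7Sca1 cells, apart by 1.40 from SCs DT (SE 0.29, limma adjusted p = 0.0114). Acadm, for medium chains, was at 12.7 and 15.2 RPKM in SCs CTRL and 17.2 and 15.7 in SCs DT. In α7Sca1 cells it was at 52.1 and 122 RPKM, the widest gap of any member between both libraries of a group, and its difference of 2.21 carried the widest error of the dehydrogenases (SE 0.38, adjusted p = 0.00535). Acads, for short chains, was at 9.04 and 10.04 RPKM in SCs CTRL, 9.51 and 9.52 in SCs DT, and 28.2 and 21.6 in α7Sca1 cells, apart by 1.29 (SE 0.21, adjusted p = 0.00458). The lowest α7Sca1 library was above the highest SC library for each of the 4 genes, a separation that was not counted over all genes. Without one of the SCs DT libraries the adjusted p rose to 0.0918 or 0.0845 for Acadl and to 0.0554 or 0.0565 for Acadm, and without SCs DT 1 it was 0.0518 for Acads.

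The later steps of the spiral were less even. The mitochondrial trifunctional protein, which carries out the last 3 reactions on long chains, has its subunits encoded by Hadha and Hadhb, divergent neighbours on chromosome 5 (30444841-30481702 and 30481788-30511133, mm9). Hadha was at 11.0 and 12.6 RPKM in SCs CTRL, 13.3 in each SCs DT library, and 18.1 and 19.6 in α7Sca1 cells. Hadhb was at 29.3 and 30.3 RPKM in SCs CTRL, 36.4 and 36.0 in SCs DT, and 45.6 and 81.3 in α7Sca1 cells. Both genes were highest in the α7Sca1 libraries, yet neither passed against SCs DT, with differences of 0.47 (SE 0.20, limma adjusted p = 0.111) and 0.73 (SE 0.30, adjusted p = 0.102). Against SCs CTRL they did, by 0.64 (adjusted p = 0.0440) and 1.01 (adjusted p = 0.0373), but both calls were lost without any 1 of the libraries other than α7Sca1 library 1 (adjusted p from 0.0628 to 0.189 for Hadha and from 0.0523 to 0.162 for Hadhb) and with only the compared groups fitted (0.0919 and 0.0878). They were the beta-oxidation members with the smallest differences in size apart from Cpt1b.

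The enzymes of the same steps for shorter chains all rose. Echs1, the enoyl-CoA hydratase, was at 3.601 and 3.64 RPKM in SCs CTRL, 2.90 and 4.48 in SCs DT, and 18.1 and 25.6 in α7Sca1 cells, apart by 2.29 from SCs DT (SE 0.25, limma adjusted p = 0.000845). Hadh, the 3-hydroxyacyl-CoA dehydrogenase, was at 5.10 and 5.30 RPKM in SCs CTRL, 4.56 and 4.48 in SCs DT, and 14.3 and 14.98 in α7Sca1 cells, apart by 1.501 (SE 0.18, adjusted p = 0.00114). Acaa2, a mitochondrial thiolase, was at 19.0 and 20.7 RPKM in SCs CTRL, 19.3 and 19.2 in SCs DT, and 53.1 and 39.5 in α7Sca1 cells, apart by 1.21 (SE 0.23, adjusted p = 0.00771). The SC libraries lay within a narrow band for Hadh and Acaa2 and well below both α7Sca1 libraries. Without one of the SCs DT libraries Acaa2 no longer passed (adjusted p = 0.0715 and 0.0641). Decr1, the 2,4-dienoyl-CoA reductase needed for unsaturated acyl chains, was at 4.41 and 5.65 RPKM in SCs CTRL, 3.84 and 4.10 in SCs DT, and 17.4 and 16.9 in α7Sca1 cells. Its difference from SCs DT, 1.87 (SE 0.20, adjusted p = 0.000687), had the smallest adjusted p of all members.

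The electron transfer flavoprotein, which accepts electrons from the acyl-CoA dehydrogenases, and the enzyme that hands them to ubiquinone rose together. Etfa, its alpha subunit, was at 32.2 and 38.3 RPKM in SCs CTRL, 34.6 and 36.6 in SCs DT, and 109 and 130.2 in α7Sca1 cells, apart by 1.72 from SCs DT (SE 0.23, limma adjusted p = 0.00186). Etfb, its beta subunit, was at 41.3 and 48.9 RPKM in SCs CTRL, 52.0 and 47.1 in SCs DT, and 192 and 185 in α7Sca1 cells, apart by 1.91 (SE 0.23, adjusted p = 0.00113). Etfdh, the dehydrogenase, stood far lower, at 2.72 and 4.20 RPKM in SCs CTRL, 3.27 and 3.20 in SCs DT, and 9.12 and 9.63 in α7Sca1 cells, apart by 1.29 (SE 0.21, adjusted p = 0.00462). Etfb was the most abundant beta-oxidation member per length in every library.

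Both peroxisomal members, which work on fatty acids before or beside the mitochondrion, rose. Ehhadh (chromosome 16: 21761360-21787917), the peroxisomal bifunctional enzyme, was low in SCs, at 0.327 and 0.228 RPKM in SCs CTRL and 0.328 and 0.633 in SCs DT, and was at 5.83 and 11.5 in α7Sca1 cells. Its difference of 2.65 from SCs DT (SE 0.29, limma adjusted p = 0.000785) was the largest of the 32 members, and the mean RPKM was 18.1 times that of SCs DT. Values this low are compressed by the added 1 RPKM. Hsd17b4, the other peroxisomal multifunctional enzyme, was at 9.12 and 9.59 RPKM in SCs CTRL, 9.24 and 8.03 in SCs DT, and 19.3 and 23.9 in α7Sca1 cells, apart by 1.23 (SE 0.21, adjusted p = 0.00495), and without SCs DT 2 the adjusted p was 0.0532.

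The pyruvate dehydrogenase complex, which makes acetyl-CoA from pyruvate, did not pass the test in any comparison, though all 4 differences of α7Sca1 cells from either SC group were positive. Pdha1, the catalytic alpha subunit, was at 23.6 and 28.4 RPKM in SCs CTRL, 27.5 and 28.1 in SCs DT, and 37.7 and 51.9 in α7Sca1 cells. Both α7Sca1 libraries were above every SC library, and the difference was 0.65 from SCs DT (SE 0.24, limma adjusted p = 0.0820) and 0.75 from SCs CTRL (adjusted p = 0.0516). In the annotation 16.0% of its exon bases overlap Map3k15 on the opposite strand, which was at most at 0.104 RPKM. Pdhb, the beta subunit, was at 49.9 and 56.2 RPKM in SCs CTRL, 49.4 and 56.6 in SCs DT, and 58.9 and 91.1 in α7Sca1 cells. Dlat, the acetyltransferase core, was at 9.81 and 13.6 RPKM in SCs CTRL, 11.3 and 9.96 in SCs DT, and 12.8 and 16.5 in α7Sca1 cells. Dld, a subunit shared with other dehydrogenase complexes, was at 19.5 and 26.0 RPKM in SCs CTRL, 23.9 and 26.8 in SCs DT, and 23.1 and 39.9 in α7Sca1 cells. The median difference of the 4 genes from SCs DT was 0.44, and their intervals reached from -0.46 to 1.22.

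Pdk4 (chromosome 6: 5433351-5446309), a kinase that shuts the complex off and is induced by fasting in muscle, was at 10.6 and 16.2 RPKM in SCs CTRL, 13.6 and 21.4 in SCs DT, and 29.5 and 65.9 in α7Sca1 cells. Both libraries of each group lay wide apart. The difference of 1.32 from SCs DT only just passed (SE 0.42, limma adjusted p = 0.0493) and was lost without any 1 of the libraries other than α7Sca1 library 1, with adjusted p from 0.0986 to 0.278. Against SCs CTRL it was 1.68 (adjusted p = 0.0207), which was lost without SCs CTRL 1, SCs CTRL 2 or α7Sca1 library 2 (adjusted p = 0.153, 0.0816 and 0.0750) and with no filter (0.0584). Pdk2, another kinase of the complex, rose further than Pdk4, from 6.98 and 11.9 RPKM in SCs DT to 48.3 and 97.6 in α7Sca1 cells (difference 2.78, SE 0.37, adjusted p = 0.00189). Of the summed level of Pdk1 to Pdk4, Pdk4 held 45.6% and 61.5% in SCs CTRL, 50.4% and 55.7% in SCs DT, and 34.6% and 38.5% in α7Sca1 cells, so that its share was lowest where its level was highest. The kinases summed to 23.3 to 38.4 RPKM in the SC libraries and to 85.3 and 171 RPKM in α7Sca1 cells.

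None of the 8 citrate cycle members passed the test in any comparison. Cs, citrate synthase, which opens the cycle, was at 49.4 and 61.6 RPKM in SCs CTRL, 53.7 and 49.1 in SCs DT, and 48.6 and 37.8 in α7Sca1 cells. Idh2, the NADP-linked mitochondrial isocitrate dehydrogenase, was at 73.5 and 89.9 RPKM in SCs CTRL, 70.1 and 76.9 in SCs DT, and 58.2 and 55.5 in α7Sca1 cells. Idh3a, the catalytic subunit of the NAD-linked enzyme, was at 21.7 and 32.1 RPKM in SCs CTRL, 28.1 and 25.1 in SCs DT, and 23.5 and 17.8 in α7Sca1 cells. For these first enzymes of the cycle the α7Sca1 libraries lay below both SCs DT libraries, a separation that was not counted over all genes. The differences from SCs DT were -0.25, -0.36 and -0.36 and did not pass.

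Ogdh, the first component of the 2-oxoglutarate dehydrogenase complex, was at 14.1 and 16.7 RPKM in SCs CTRL, 15.9 and 14.7 in SCs DT, and 24.7 and 18.6 in α7Sca1 cells. Suclg1, the succinyl-CoA ligase subunit common to both forms of that enzyme, was at 10.2 and 11.2 RPKM in SCs CTRL, 9.76 and 9.91 in SCs DT, and 14.6 and 13.02 in α7Sca1 cells. Fh1, fumarate hydratase, was at 25.1 and 33.8 RPKM in SCs CTRL, 29.4 and 26.2 in SCs DT, and 41.2 and 35.2 in α7Sca1 cells. These genes lay above every SC library in α7Sca1 cells, a separation that was not counted over all genes. Their differences from SCs DT were 0.46, 0.45 and 0.44 and did not pass either. Sucla2, the ATP-forming succinyl-CoA ligase subunit, was at 16.1 and 18.5 RPKM in SCs CTRL, 15.4 and 17.5 in SCs DT, and 15.1 and 17.4 in α7Sca1 cells. Mdh2, the mitochondrial malate dehydrogenase and the most abundant member in the SC libraries, was at 133 and 179 RPKM in SCs CTRL, 161 and 163 in SCs DT, and 163 and 131 in α7Sca1 cells. For both, the groups overlapped.

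Over the 8 citrate cycle genes the median difference from SCs DT was -0.08, and none passed limma's test, with 1 at an unadjusted p under 0.05. The differences lay between -0.36 and 0.46 and their 95% intervals between -0.99 and 1.01. The summed level of the 8 genes was 343 and 442 RPKM in SCs CTRL, 383 and 382 in SCs DT, and 389 and 326 in α7Sca1 cells. The summed beta-oxidation members were 0.613 to 0.725 times that sum in the SC libraries, and 1.89 and 2.79 times it in α7Sca1 cells.

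Lists of related genes showed where the pattern of the members went on. None of them held a called gene between SCs DT and SCs CTRL, at an unadjusted p under 0.05 there were at most 3 genes in a list, and a single regulator stood out there without passing. Klf15, a transcription factor of fasting metabolism named here after its values were seen, was at 0.242 and 0.213 RPKM in SCs CTRL and 1.67 and 1.65 in SCs DT (difference 1.12, limma adjusted p = 0.294).

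Between α7Sca1 cells and SCs DT, 14 of 17 other mitochondrial beta-oxidation genes rose and none fell. Among them Hsd17b10, a dehydrogenase of short and branched acyl chains, rose by 3.17 (limma adjusted p = 0.000309), from 35.4 and 44.7 RPKM in SCs DT to 304 and 441. Acad11, an acyl-CoA dehydrogenase, rose by 2.56 (adjusted p = 0.000371), and Crat, which makes acetylcarnitine, by 2.20 (adjusted p = 0.000396). Cpt1c, the third carnitine palmitoyltransferase 1 gene, known from neurons, was at 0.739 and 0.783 RPKM in SCs DT and 1.35 and 0.470 in α7Sca1 cells (adjusted p = 0.826). None of the 3 genes of that enzyme was therefore called higher in α7Sca1 cells.

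Of 15 other peroxisomal oxidation genes 12 rose and none fell. Abcd2, a peroxisomal fatty acyl-CoA transporter, rose by 3.57 (limma adjusted p = 0.000127), from 0.363 and 0.403 RPKM in SCs DT to 15.4 in each α7Sca1 library. Cat, catalase, rose by 4.82 (adjusted p = 0.000140), from 9.61 and 14.3 RPKM to 316 and 409, and Acaa1a, a peroxisomal thiolase, by 2.38 (adjusted p = 0.000305). Among the transcriptional regulators 6 of the 13 tested rose and 1 fell. Pparg, the PPAR of adipocytes, was at 0.887 and 1.08 RPKM in SCs DT and 28.0 and 37.6 in α7Sca1 cells (difference 4.08, adjusted p = 0.000127), and it is also one of the 12 adipocyte markers. Klf15 rose by 1.77 (adjusted p = 0.00826, and 0.0741 or 0.0659 without one of the SCs DT libraries), while Esrra, which encodes an ERR, was at 0.867 and 0.699 RPKM in SCs DT and 0.773 and 0.799 in α7Sca1 cells. Ppargc1a, a coactivator of both receptor families, was at 1.98 and 11.1 RPKM in α7Sca1 cells, and its call (adjusted p = 0.0460) was lost in 7 other fits, with adjusted p from 0.0681 without the trend to 0.191 without SCs DT 1, among them those without SCs DT 2, SCs CTRL 1 or SCs CTRL 2 (0.189, 0.116 and 0.115).

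The remaining citrate cycle genes were mixed, and the compartment of the enzyme differed among them. Of 12 genes 6 rose, and the first 3 by adjusted p were Mdh1, Idh1 and Aco1, which encode the cytosolic malate dehydrogenase, isocitrate dehydrogenase and aconitase rather than enzymes of the cycle itself. They rose by 1.82, 2.20 and 1.88 (limma adjusted p = 0.00202, 0.00220 and 0.00377), and Mdh1 went from 37.8 and 35.0 RPKM in SCs DT to 117 and 146. The other 3 were mitochondrial, with smaller differences: Suclg2 (1.17), the GTP-forming succinyl-CoA ligase subunit, Sdha (1.13), of succinate dehydrogenase, and Idh3g (0.85), a regulatory subunit of the NAD-linked isocitrate dehydrogenase.

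Around pyruvate 8 of 11 genes rose and 1 fell. Pcx, pyruvate carboxylase, which feeds oxaloacetate to the cycle, was at 1.701 and 4.02 RPKM in SCs DT and 84.9 and 135 in α7Sca1 cells (difference 4.88, limma adjusted p = 0.000197). Mpc2, a subunit of the mitochondrial pyruvate carrier, rose by 1.78 (adjusted p = 0.00178), and Pdp1, a phosphatase that reactivates the pyruvate dehydrogenase complex, was the gene that fell, by 1.10 (adjusted p = 0.00586).

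**Figure D4:**
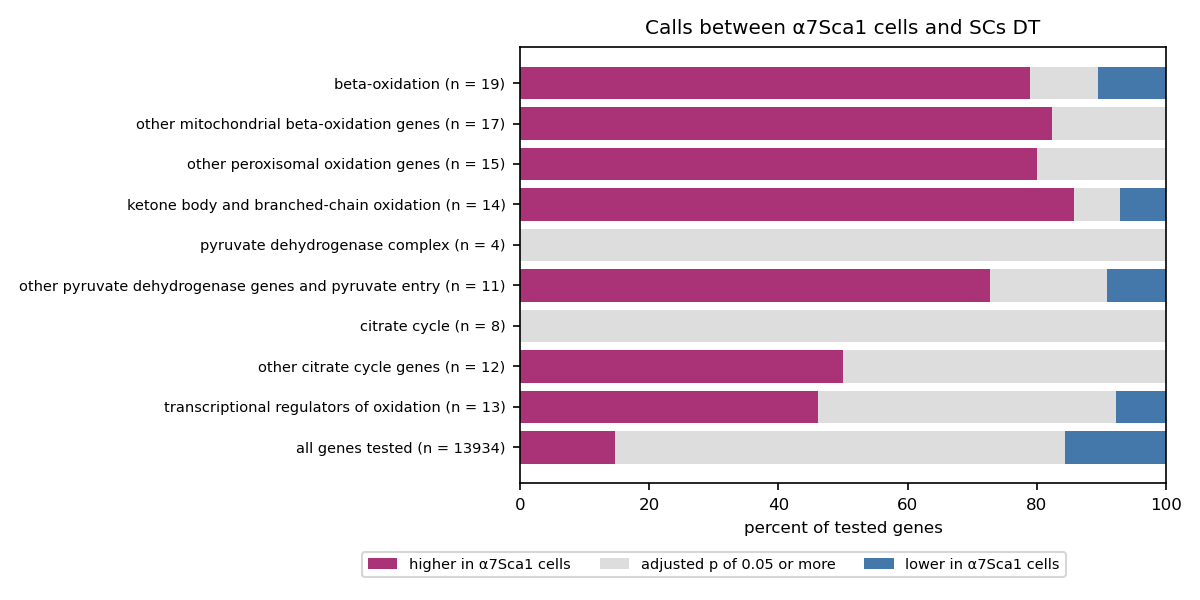
Percent of the tested genes of each list that were called higher (purple), called lower (blue) or not called (grey) between α7Sca1 cells and SCs DT at a limma adjusted p of 0.05, with the number of tested genes in brackets and all 13934 genes in the bottom bar. The bars of the beta-oxidation, other beta-oxidation, peroxisomal and branched-chain lists are mostly purple, those of the pyruvate dehydrogenase complex and the 8 citrate cycle members wholly grey, and 14.6% of all genes are purple.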

How the data were processed

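The authors sequenced poly(A) RNA of sorted cells (SMART-seq2, a kit that does not mark strand) and deposited RPKM values per gene and library, from reads aligned to mm9 with TopHat (TopHat2 2.0.8 in the submitters' processing notes). Sorted RPKM values differ between libraries by at most 0.0192 RPKM, so that a change shared by most genes cannot be seen, and the depth of each library is unknown. A second deposited table holds fold changes and p-values of the authors' own comparison, 6 columns that repeat these libraries and 4 of another cell type; it was not used.

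Groups were taken from the sample labels. limma 3.58.1 (R 4.3.3, eBayes with trend) was fitted to log2(RPKM + 1) of the 13934 genes with a maximum above 0.25 RPKM, in 1 model over the 6 libraries with no replicate block, and Benjamini-Hochberg adjusted p-values under 0.05 were called. SEs come from this pooled spread, with 3 residual degrees of freedom. An exact permutation test of 2 libraries against 2 cannot go below p = 0.333 and was not used. How many of all genes had groups without overlap was not counted, so a lack of overlap is a description only. Nothing in the labels shows whether pools shared a sort day, or whether α7Sca1 and SCs DT pools came from the same mice. The p-values therefore measure the spread between these pools, taken as unpaired. The fit was tested on simulated data. Alternatives were other pseudocounts, filters and scalings, eBayes without trend, fits of only 2 groups, a replicate block, and each library left out in turn. Gene coordinates and overlaps are from the mm9 annotation (GENCODE), and promoter windows from RefSeq on GRCm38.p6; the builds were not mixed. Tables and figures were made in Python 3.11.15 with pandas 2.3.3, numpy 2.4.6 and matplotlib 3.10.9.

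The members and the lists were chosen with earlier results of these data known. Every member was named. Of the other lists, up to 3 called genes of at least 5 RPKM were named by adjusted p in each comparison, and any further gene was named after its values were seen.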

Additional observations from a re-analysis of the deposited data

How the results depend on the processing

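Of the 18 members called between α7Sca1 cells and SCs DT, 17 stayed called under every alternative that kept all libraries of the compared groups, Pdk4 being the exception, and 11 under every fit that left out 1 library. Against SCs CTRL these counts were 16 and 13 of 19, with Hadha, Hadhb and Pdk4 lost among the former. No called member reversed. Of the scalings, the one that brings all libraries to 1 distribution could change little, because the deposited values nearly had that form already. Leaving out 1 library at a time gave 11 to 19 members called higher and 1 to 2 lower against SCs DT, the lower range holding for the beta-oxidation members too, and 0 to 2 called higher among the pyruvate dehydrogenase complex and citrate cycle genes against either SC group. Over all genes it gave 825 to 2340 higher and 765 to 2051 lower against SCs DT, the low ends without SCs DT 1 (999 and 1032 without SCs DT 2). Against SCs CTRL it gave 878 to 2403 higher and 863 to 2287 lower, the low ends without SCs CTRL 2 (1068 and 1138 without SCs CTRL 1). Between SCs DT and SCs CTRL it gave 0 to 21 higher and 0 to 17 lower, with 0 members in every alternative. For the same comparison the counts higher and lower over all genes were 2 and 2 with no filter, 28 and 7 without the trend, and 1 and 0 with only both SC groups fitted. Against SCs CTRL 1 gene of the pyruvate dehydrogenase complex and citrate cycle was called higher with a pseudocount of 0.1 RPKM, with a maximum of at least 1 RPKM, after rescaling by median ratios and without the trend. No member held a PPAR site with 1 mismatch allowed (0 of 27). The replicate numbers are only numbers in the labels; the deviations of same-numbered libraries correlated at -0.13, 0.25 and 0.16, and the replicate block gave 67 genes higher and 25 lower between SCs DT and SCs CTRL and 17 members higher between α7Sca1 cells and SCs CTRL. The crossed pairing, added after seeing the data, gave 54 and 14 between SCs DT and SCs CTRL. The depth behind each value is unknown.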

Other observations

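Branched-chain amino acid breakdown, which shares the acyl-CoA dehydrogenase chemistry and the electron transfer flavoprotein with beta-oxidation, was higher in α7Sca1 cells as well. Of 14 genes of ketone body and branched-chain oxidation, 12 rose from SCs DT and 1 fell, beside 14.6% and 15.6% of all genes tested. Bcat2, the mitochondrial branched-chain aminotransferase, was at 5.18 and 4.87 RPKM in SCs CTRL, 5.02 and 7.29 in SCs DT, and 83.3 and 118 in α7Sca1 cells (difference from SCs DT 3.82, limma adjusted p = 0.000188). Mccc2, a subunit of methylcrotonyl-CoA carboxylase, rose by 2.69 (adjusted p = 0.000188) and Ivd, isovaleryl-CoA dehydrogenase, by 2.73 (adjusted p = 0.000530).

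The gene of this list that fell was Bdh1, a ketone body dehydrogenase, by 0.78 (limma adjusted p = 0.0269), and Oxct1, which activates ketone bodies for use, was at 13.03 and 9.72 RPKM in SCs DT and 11.7 and 9.50 in α7Sca1 cells (adjusted p = 0.806). Both were named after their values were seen.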
